A study of Homo sapiens with 6 samples.

Results

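The zones at the ends of the human autosomes were described here by the peaks of 5-hydroxymethylcytosine (5hmC) and 5-methylcytosine (5mC) that lie in them. A peak belonged to an end zone when its midpoint lay within 5 Mb of the outermost peak listed on that chromosome, pooled over the 4 peak lists. The first-row ends of 5 chromosomes (13, 14, 15, 21 and 22), whose short arms are acrocentric, were left out, so that 39 arm ends were described. They held 92521 of the 593594 listed peaks of the series and took up 6.98% of the length between the outermost autosomal peaks. The rule used position only, and no peak strength. Distances count from that outermost peak, and the chromosome end itself lies farther out. The rest of chromosomes 1 to 22, set beside the end zones, includes the left-out ends and gaps in the assembly. Positions are on the human build hg19.

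The cells were A2058, a melanoma line, made to overexpress wild-type TET2 (TET2WT) and kept for 7 days in high or in normal glucose. Each glucose level gave 1 hMeDIP-seq library, enriched with an antibody against 5hmC, 1 MeDIP-seq library, enriched with an antibody against 5mC, and 1 input library. All 6 libraries come from TET2-overexpressing cells of 1 line, and neither the glucose concentrations nor the way TET2 was introduced is stated in the labels. The groups were 5hmC in high glucose, 5hmC in normal glucose, 5mC in high glucose and 5mC in normal glucose, with 1 library in each, and the comparison asks how both marks differ between the glucose levels.

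5mC is the methyl mark that DNA methyltransferases place on cytosine, mostly at CpG sites. TET enzymes, of which TET2 is one, oxidise it to 5hmC, so that 5hmC arises where 5mC stands. Outside the telomere repeats themselves, the outer megabases of human chromosomes are as a rule rich in G and C, in CpG sites and, on many arms, in genes, and in many cell types their DNA is heavily methylated. MeDIP and hMeDIP recover more fragments where modified CpG sites lie close together, so that peak density follows CpG density as well as the level of modification. A peak can be missing because fewer cells carry the mark or because each cell carries less of it, and these cannot be told apart in bulk DNA.

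With 1 library per group there is no replicate check, and no test between the glucose levels is given. Intervals are exact binomial (Clopper-Pearson) 95% intervals. They cover counting error only: no molecular identifiers tell copies of 1 molecule apart, and neighbouring peaks are not replicates. The fold enrichment and the -log10 p of a peak are those of the authors' lists. Read numbers are not among the columns, and the fragments at each summit and the number expected there were worked out from fold and p. The lowest expected number of a list, read as its genome-wide background, was 3.03 for 5hmC in high and 2.64 in normal glucose, and for 5mC it was 0.737 and 0.615, so the high-glucose library had the larger background in both marks. The shortest listed 5hmC peak was 292 bp in high and 259 bp in normal glucose, and the shortest 5mC peak 324 and 325 bp. Comparisons of 5hmC background and peak width between the levels carry this difference.

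Both marks were denser in the end zones than in the rest of chromosomes 1 to 22, and 5mC more so than 5hmC. Peaks of 5mC covered 10.84% of the end zones in high glucose and 10.31% in normal glucose, against 1.89% and 1.74% outside them. The end-zone cover was thus 5.74 times that of the rest in high and 5.93 times in normal glucose. Peaks of 5hmC covered 8.93% of the end zones in high glucose and 10.55% in normal glucose, against 3.65% and 3.90% outside, which is 2.45 and 2.70 times. In peak numbers, the end zones held 20862 high-glucose and 19773 normal-glucose 5mC peaks, or 21.2% and 21.9% of the autosomal peaks of these lists. For 5hmC they held 24297 and 27589 peaks, or 13.05% and 13.5%. In the end zones 5mC therefore covered more length than 5hmC in high glucose and about as much in normal glucose, whereas outside them 5hmC covered more at both levels. The 5mC lists rest on fewer fragments, so levels of cover are not set between the marks as amounts of each modification. Peaks also stood just beyond the edge of the zones. In the last 0.1 Mb inside it the lists held 406, 468, 340 and 316 peaks for 5hmC in high and normal and 5mC in high and normal glucose, and in the first 0.1 Mb outside it 348, 401, 299 and 277.

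Cover changed with distance in a shape that both marks and both glucose levels shared. It was intermediate in the outermost 0.5 Mb, highest between 0.5 and 1 Mb, high up to 2 Mb, and lower and nearly level from 2.5 to 5 Mb. For 5mC in high glucose, the 10 bins of 0.5 Mb from the end inwards had a cover of 12.7%, 17.2%, 15.5%, 14.2%, 10.5%, 7.46%, 8.16%, 7.999%, 7.21% and 7.52%. In normal glucose the 5mC cover followed the same course at a slightly lower level, with 12.1% in the outermost bin, 16.5% in the second and 7.13% in the last. For 5hmC in high glucose the values ran from 8.37% over 11.3%, 11.2%, 10.9%, 8.51%, 7.62%, 8.54%, 7.59% and 7.43% to 7.80%. In normal glucose the 5hmC cover was higher in each bin, with 9.89% in the outermost, 14.02% in the second and 9.04% in the last. Beyond 5 Mb the decline went on. Between 15 and 20 Mb from the end 5mC covered 2.59% in high and 2.41% in normal glucose, and 5hmC covered 4.68% and 5.11%, still above the mean of the rest.

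**Figure D1:**
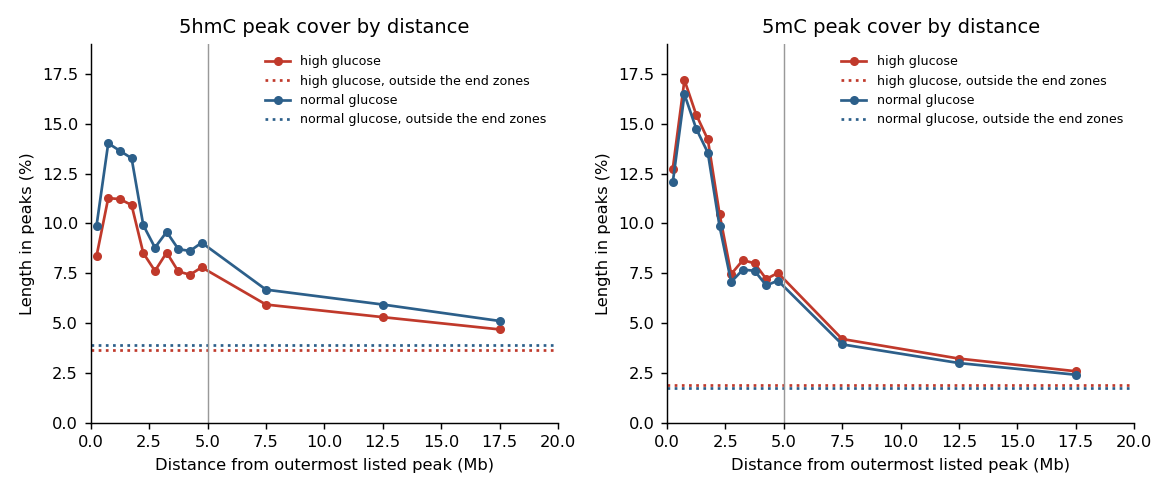
Percent of length in 5hmC peaks (left) and 5mC peaks (right) against distance from the outermost listed peak in Mb, in 10 bins of 0.5 Mb and then 3 bins of 5 Mb over 39 arm ends. Red is high and blue normal glucose, dotted lines give the mean outside the end zones and the grey line marks 5 Mb, and both marks peak between 0.5 and 1 Mb, at 11.3% and 14.02% for 5hmC and 17.2% and 16.5% for 5mC.

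The dip at the very end was gradual. In steps of 0.1 Mb, 5mC cover in high glucose was 5.22%, 8.41%, 14.9%, 17.15% and 18.04%, and in normal glucose 4.93%, 7.77%, 14.2%, 16.5% and 16.9%. The 5hmC cover was 6.10% in high and 6.73% in normal glucose in the first step and 9.52% and 11.6% in the fifth. The 5mC cover thus fell off more steeply towards the outermost 0.1 Mb than the 5hmC cover. The ratio of 5mC cover between the outermost 0.5 Mb and the bin from 4.5 to 5 Mb was 1.70 in high and 1.69 in normal glucose. For 5hmC it was 1.07 and 1.10, so the outermost bin and the last one differed little for this mark.

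Towards the ends 5mC peaks were also stronger and wider, while 5hmC peaks were wider with little difference in fold. The median fold enrichment of 5mC peaks over all end zones was 8.06 in high and 8.10 in normal glucose, against 6.33 and 6.35 outside, and their median width 661 and 670 bp, against 475 and 479 bp. Within the zones the median fold of 5mC in high glucose was 9.21 in the outermost bin and 7.16 in the last, and in normal glucose 9.08 and 7.24. The median fold of 5hmC peaks was nearly the same inside and outside the zones, 4.47 and 4.46 in high glucose and 4.40 and 4.31 in normal glucose. Their median width was 533 bp in high and 526 bp in normal glucose inside, against 457 and 434 bp outside. Peaks of at least 3 kb made up 4.51% of end-zone 5mC peaks in high and 4.54% in normal glucose, where the share over all autosomes was 1.36% and 1.43%. For 5hmC they made up 0.934% in high and 1.56% in normal glucose, where the autosomes as a whole had 0.312% and 0.523%. The end zones held 940 of the 1339 high-glucose 5mC peaks of this width and 897 of the 1291 in normal glucose. The median number of fragments expected at a 5mC peak was close inside and outside the zones. It was 0.913 and 0.899 in high glucose and 0.737 in both in normal glucose. For 5hmC it was 4.16 in both in high glucose. In normal glucose it was lower inside the zones, 3.45 against 3.76 outside. Whether this bears on the 5hmC ratio between the levels was not tested.

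The 39 arm ends differed widely among themselves. The end of 19p, on the gene-dense chromosome 19, had the highest cover of both marks, with 5hmC over 21.7% in high and 26.9% in normal glucose and 5mC over 32.1% and 29.98%. For 5hmC the end of 17q followed with 17.5% and 22.8% and that of 16q with 16.65% and 20.8%, in high and normal glucose. For 5mC the next were 17q, with 28.25% and 27.3%, and 16p, with 25.3% and 24.5%. At the other extreme, 5hmC covered 1.84% in high and 2.06% in normal glucose at the end of 18p, 2.169% and 2.42% at 3p, and 2.71% and 2.40% at 8p. The lowest 5mC cover was 0.636% in high and 0.634% in normal glucose at 3p, followed by 1.29% and 1.10% at 18p and 1.60% and 1.46% at 9p. The median arm end had 8.07% and 8.90% for 5hmC and 8.44% and 7.89% for 5mC. Of the 39 arm ends, 36 exceeded the cover of the rest of the autosomes in the high-glucose 5hmC list and in each 5mC list, and 35 did in the normal-glucose 5hmC list. How many 5 Mb windows elsewhere exceed it was not counted, so these counts are no result about the ends. Across the 39 arm ends, the mean cover of the marks over both glucose levels rose together (Pearson r 0.952, Spearman rho 0.910). This is a description over points that share their libraries and the base composition of the arm.

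The course with distance was not the same on each arm either. The mean 5mC cover of the outer 2 Mb exceeded that of the stretch from 2 to 5 Mb on 31 of 39 arm ends at both glucose levels, and the 5hmC cover did so on 26 in high and 27 in normal glucose. Of the 39 arm ends, 13 in high and 11 in normal glucose had their highest 5mC cover between 0.5 and 1 Mb, and 2 in each list had it in the outermost bin. The arms named next for their profile were chosen after their values were seen. At 5p, the outer 2 Mb had a 5mC cover of 20.2% in high and 19.98% in normal glucose, against 0.790% and 0.799% from 2 to 5 Mb. At 12q these values were 18.3% and 17.8%, against 1.34% and 1.28%. The 5hmC cover at 5p was 13.8% in high and 16.4% in normal glucose in the outer 2 Mb, and 4.06% and 3.75% behind them. The opposite course was seen at 1q, where 5mC covered 2.47% in high and 2.18% in normal glucose in the outer 2 Mb and 6.04% and 5.87% from 2 to 5 Mb.

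**Figure D2:**
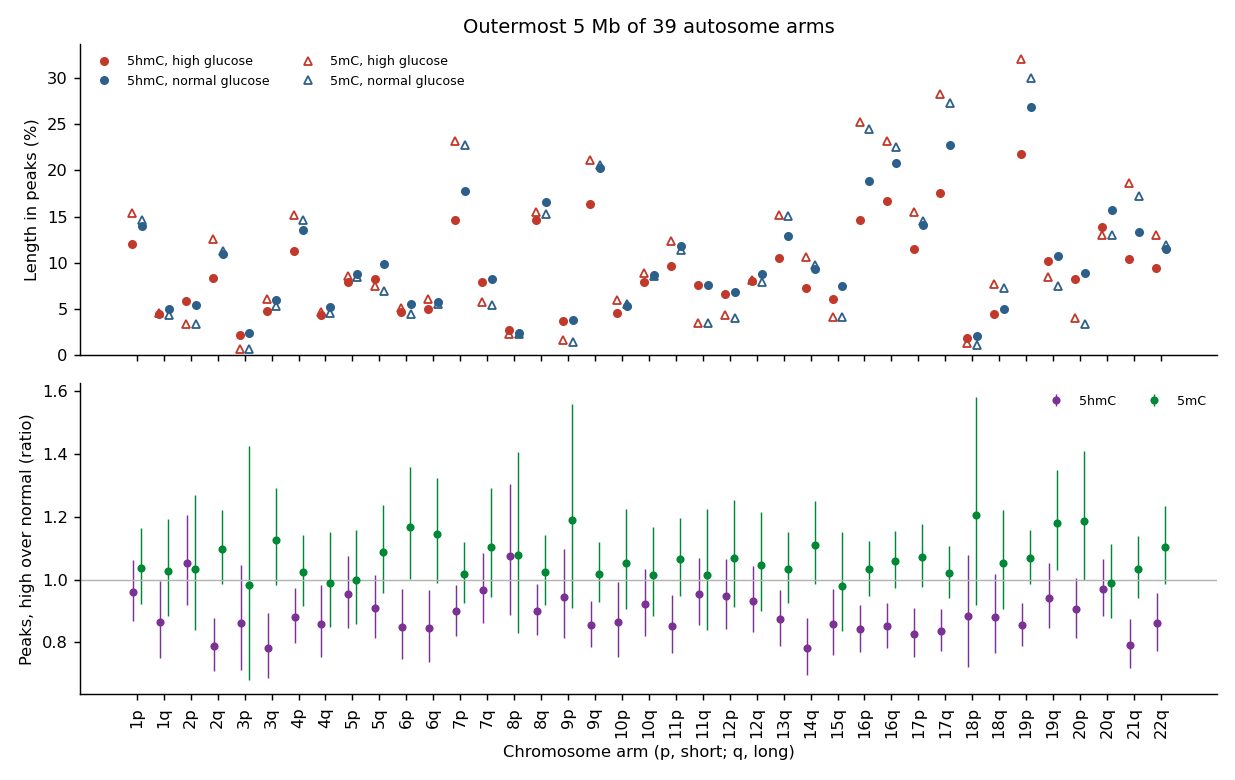
Outermost 5 Mb of 39 autosome arms: percent of length in peaks (top; filled circles 5hmC, open triangles 5mC, red high and blue normal glucose) and ratio of peak numbers, high over normal glucose, with 95% counting intervals (bottom; purple 5hmC, green 5mC). The cover ranges from under 1% for 5mC at 3p to 32.1% at 19p, the 5hmC ratio from 0.783 to 1.08 and the 5mC ratio from 0.981 to 1.20.

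Between the glucose levels, the end zones held fewer 5hmC peaks in high glucose, 24297 against 27589 in normal glucose, a ratio of 0.881 (0.866 to 0.896). Outside the zones the ratio was 0.914 (0.908 to 0.920). In covered length the difference was wider, with a ratio of 0.846 in the end zones and 0.934 outside. The difference in 5hmC cover, high minus normal glucose, was -1.62 percentage points in the end zones and -0.257 outside. The ratio of peak numbers was below 1 at 37 of 39 arm ends, but windows of 5 Mb over the autosomes as a whole had fewer 5hmC peaks in high glucose in 84.7% of cases (83.9% without the arm ends), so a count over arm ends says little about the ends. The lowest ratios were 0.783 at 3q, with 408 high-glucose and 521 normal-glucose peaks, 0.783 at 14q, with 528 and 674, and 0.789 at 2q, with 616 and 781. The highest were 1.08 at 8p, with 227 and 211 peaks, 1.05 at 2p, with 446 and 424, and 0.970 at 20q, with 892 and 920. The median expected number at high-glucose 5hmC peaks differed between arms. It was 3.11, 3.03 and 3.03 at 3q, 14q and 2q, and 3.03, 4.13 and 5.83 at 8p, 2p and 20q. Its relation to the ratio was not tested. Of the 390 end-zone bins of 0.5 Mb, 275 had less 5hmC cover in high glucose, or 70.5%, where all autosomal windows gave 52.3%.

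The direction of the 5hmC ratio depended on peak strength, as it did outside the zones. With only peaks of a -log10 p of at least 10, the end zones held 12104 high-glucose and 11876 normal-glucose 5hmC peaks, a ratio of 1.02 (0.994 to 1.045), and 10 of 39 arm ends had fewer in high glucose. Over all 5 Mb windows that share was 6.27%, and over those outside the end zones it was 24 of 503. The rest had a ratio of 1.13 (1.12 to 1.14). Scaling the high-glucose library, in addition, down to the background of normal glucose gave 0.880 in the end zones. This scaling can only remove high-glucose peaks. The end zones stood below the rest under each of these settings. The ratio in the zones divided by that in the rest was 0.963 for all peaks, 0.901 for peaks of -log10 p of at least 10 and 0.929 with matched background.

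By distance, the deficit of 5hmC cover in high glucose was widest where cover was highest. The difference, high minus normal glucose, was -1.53 percentage points in the outermost 0.5 Mb, -2.75 between 0.5 and 1 Mb, -2.42 and -2.35 in the next bins, and between -1.40 and -1.04 from 2 to 5 Mb. As a ratio of covered length, high over normal glucose, the 10 bins from the end inwards gave 0.846, 0.804, 0.823, 0.823, 0.859, 0.867, 0.892, 0.871, 0.862 and 0.863. The ratio of peak numbers, in contrast, had no course with distance beyond its intervals, with values of 0.861 to 0.910 in the 10 bins. Cover was lower in high glucose at 34 of 39 arm ends in the bin from 0.5 to 1 Mb, at 26 in the outermost and at 26 in the last bin. Of all autosomal windows of 0.5 Mb with 5hmC, 52.3% had less 5hmC cover in high glucose. Among the stronger peaks (-log10 p of 10 or more) the ratio was 0.986 (0.949 to 1.024) in the outer 2 Mb and 1.05 (1.01 to 1.08) from 2 to 5 Mb.

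**Figure D3:**
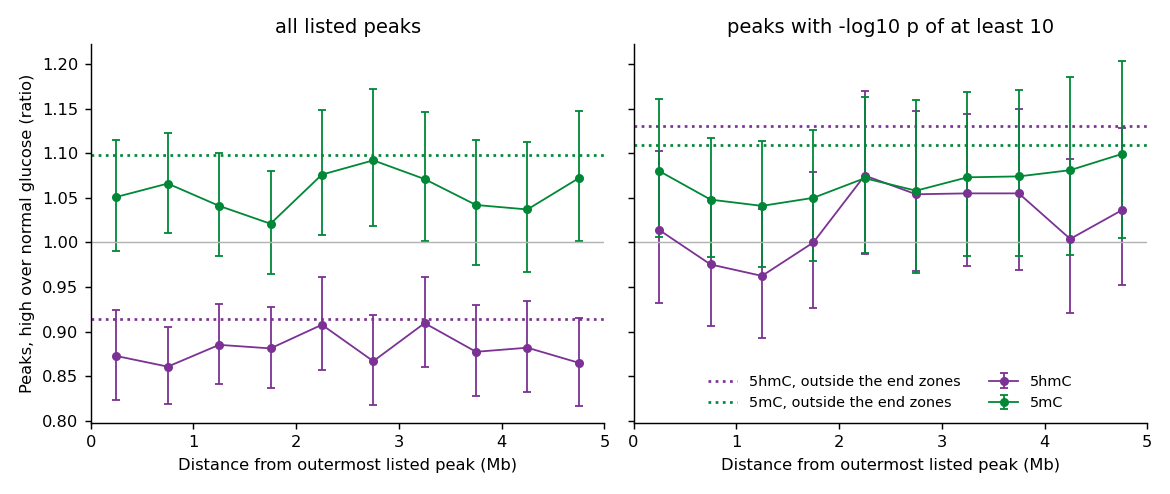
Ratio of peak numbers, high over normal glucose, against distance from the outermost listed peak in Mb, for all listed peaks (left) and for peaks with a -log10 p of at least 10 (right). Points are bins of 0.5 Mb over 39 arm ends with 95% counting intervals, purple is 5hmC and green 5mC, and dotted lines give the ratio outside the end zones: 0.914 and 1.10 for all peaks and 1.13 and 1.11 for the stronger ones.

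At 5hmC peaks that matched one to one between the lists, with summits within 200 bp of each other, fragment numbers and expected numbers could be compared directly. In the end zones 14906 such pairs had a median of 25 fragments in high and 23 in normal glucose, and outside them 102768 pairs had 26 and 23. The median ratio of fragments, high over normal glucose, was 1.14 in the zones and 1.15 outside, and the median ratio of expected numbers was 1.15 in both. The fold enrichment was lower in high glucose at 49.7% of the pairs in the zones and at 47.6% of those outside. It was lower at 53.1% of pairs between 1 and 1.5 Mb and at 45.6% between 2.5 and 3 Mb. The median ratio of fold enrichments, high over normal glucose, was 1.002 in the zones and 1.02 outside. The fold adds 1 to both numbers, and without that the median ratio of fragments over expected was 0.976 in the zones and 0.9955 outside.

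The largest losses of 5hmC cover in single bins lay in 5mC-rich stretches. On chromosome 17 from 78695010 to 79195009, 5hmC covered 23.7% in high and 33.25% in normal glucose, with 144 and 159 peaks, and 5mC covered 45.7% and 42.3%. On chromosome 9 from 139094070 to 139594069, 5hmC covered 22.2% in high and 31.5% in normal glucose and 5mC 41.3% and 38.7%. The third was chromosome 19 from 1745539 to 2245538, with 20.5% and 29.1% for 5hmC and 41.6% and 38.0% for 5mC. The largest gains were smaller and lay where 5mC cover was lower. They were found on chromosome 4 from 3510039 to 4010038 (5hmC 12.3% in high and 9.20% in normal glucose, 5mC 5.35% and 4.89%), chromosome 19 from 57098111 to 57598110 (5hmC 9.90% and 7.64%, 5mC 2.12% and 2.13%) and chromosome 11 from 130940229 to 131440228 (5hmC 5.81% and 3.76%). The last of these held no 5mC peak in any list. Losses were ranked in percentage points and can be large only where cover is large.

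The 5mC lists went the other way. With 20862 5mC peaks in high and 19773 in normal glucose, the end zones had a ratio of 1.055 (1.035 to 1.076), against 1.10 (1.09 to 1.11) outside. Covered length gave 1.05 in the zones and 1.09 outside. The ratio of peak numbers was above 1 at 34 of 39 arm ends, where 87.2% of all 5 Mb windows (87.3% without the arm ends) had more 5mC peaks in high glucose. Cover was higher in high glucose at all 39 arm ends, by 0.531 percentage points over the zones together and by 0.152 outside them. The difference was as small as 0.00206 points at 3p and 0.00916 at 11q. The share of 5 Mb windows elsewhere with more 5mC cover was not counted, so the count of arm ends is no result about the ends. In windows of 0.5 Mb, 291 of 374 end-zone bins with 5mC, or 77.8%, had more 5mC cover in high glucose, where all autosomal windows gave 69.2%. The ratios were highest at 18p, with 124 peaks in high and 103 in normal glucose (1.20), at 9p, with 125 and 105 (1.19), and at 20p, with 300 and 253 (1.19). They were lowest at 15q, with 308 and 314 (0.981), at 3p, with 61 and 62 (0.984), and at 20q, with 559 and 566 (0.988). The intervals of these 6 ratios overlapped. Cover differed least at 3p, where 5mC was over 0.636% in high and 0.634% in normal glucose. Along the 10 distance bins the ratio lay between 1.02 and 1.09, without a course beyond its intervals.

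The excess of 5mC peaks in high glucose was not seen at matched background. The high-glucose 5mC library had a background 1.20 times that of the normal-glucose library. With weaker peaks (-log10 p under 10) left out and no scaling, the ratio in the end zones was 1.06 (1.04 to 1.09). With that library scaled down as well, it was 0.970. The scaling lowers the -log10 p of high-glucose peaks only, so it can only remove peaks of that list. More peaks in high glucose then stood at 9 of 39 arm ends, where 23.0% of all 5 Mb windows had more, so this count was near the background. The ratio in the zones divided by that in the rest was 1.025, where all listed peaks gave 0.961. At 13519 5mC peaks of the zones that matched one to one, the median ratio of fragments, high over normal glucose, was 1.16, below the median ratio of expected numbers of 1.20. The median ratio of the authors' folds there was 1.05 in the zones and 1.045 at 47286 pairs outside them. Without the 1 that the fold adds to both numbers, which weighs heavily where under 1 fragment is expected, the direction turned, to 0.953 in the zones and 0.951 outside. Comparisons of the authors' 5mC folds between the glucose levels depend on this added 1. The largest gains of 5mC cover in single bins were 41.6% in high against 38.0% in normal glucose on chromosome 19 from 1745539 to 2245538, 45.7% against 42.3% on chromosome 17 from 78695010 to 79195009, and 25.7% against 22.4% on chromosome 7 from 10153 to 510152. The first and second of these were also among the largest losses of 5hmC. The largest losses of 5mC were 31.5% in high against 33.8% in normal glucose on chromosome 16 from 85188464 to 85688463, 19.8% against 21.1% on chromosome 9 from 137094070 to 137594069, and 20.85% against 22.04% on chromosome 9 from 138594070 to 139094069. These bins had less 5hmC cover in high glucose too, 26.8% against 33.7%, 23.2% against 27.7% and 15.7% against 19.1%.

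Most end-zone peaks were found at both glucose levels. In the high-glucose 5hmC list 18% of end-zone peaks (17.5 to 18.5) had no normal-glucose partner over at least 1 bp, where the share over all autosomes was 23.9%. In the normal-glucose 5hmC list 29.7% (29.2 to 30.3) had no high-glucose partner, where the autosomal share was 31.2%. For 5mC the shares were 18.5% (17.98 to 19.04) in high glucose, with 28.1% over all autosomes, and 13.5% (13 to 13.96) in normal glucose, with 21.5%. Peaks without a partner were thus rarer in the end zones than overall in each list, least clearly so for 5hmC in normal glucose. Beside windows elsewhere of like 5mC cover, described below, this held for 5mC but not for 5hmC.

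In the end zones the marks overlapped more often than elsewhere, and a smaller share of 5mC peaks carried 5hmC in high glucose. Of the end-zone 5mC peaks, 9149 of 20862 in high glucose overlapped a 5hmC peak of the same glucose level, or 43.85% (43.2 to 44.5), against 10554 of 19773, or 53.4% (52.7 to 54.1), in normal glucose. Over all autosomes the shares were 32.3% and 39.8%. The difference in the zones was -9.52 percentage points. The share was lower in high glucose at 39 of 39 arm ends, where the difference ranged from -13.9 points at 11q, with 43.9% in high and 57.8% in normal glucose, to -3.80 points at 5p, with 48.45% and 52.25%. Of all 5 Mb windows 86.1% went the same way, so the direction was common to most of the autosomes. Windows outside the end zones hold fewer 5mC peaks on average. The lowest share in high glucose, 9.68%, was that of 18p, where normal glucose gave 23.3%, and the highest at both levels was that of 19p, with 59.3% and 69.1%. With the same number of top peaks from both lists of a mark the difference was -4.58 points, and with an overlap of 50% of both peaks -4.55.

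By distance, the share of 5mC peaks with 5hmC was highest from 0.5 to 2 Mb. In high glucose it was 42.6% in the outermost bin, 48.2%, 49.0% and 46.95% in the next 3, and 36.6% to 43.6% from 2 to 5 Mb. In normal glucose it was 50.8%, then 58.6%, 58.3% and 56.0%, and 48.2% to 53.6% from 2 to 5 Mb. High glucose had the lower share at each of the 10 distances. The intervals cover counting error within 1 library per level. Of the 20862 high-glucose 5mC peaks, 17002 also stand in the normal-glucose list, so the intervals are no test between the levels. Of the 5hmC peaks in the zones, 41.7% in high and 42.0% in normal glucose overlapped a 5mC peak, where the autosomal shares were 17.9% and 18.3%. This share was 55.0% and 54.8% between 0.5 and 1 Mb, so most 5hmC peaks of that stretch lay on a 5mC peak, and 34.5% and 34.7% between 4.5 and 5 Mb.

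**Figure D4:**
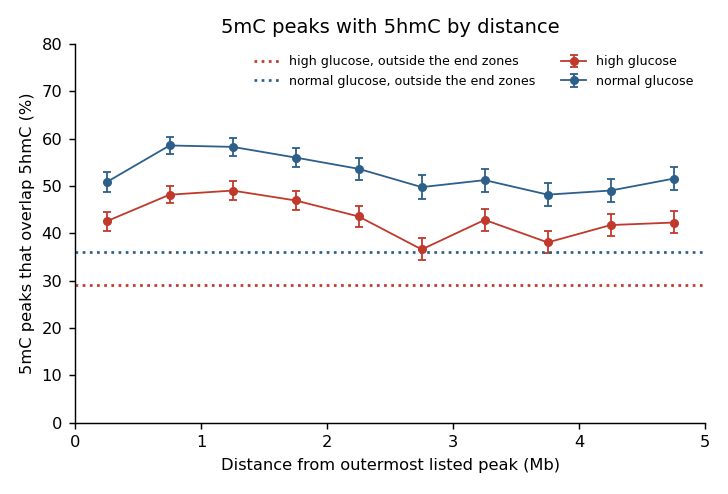
Percent of 5mC peaks that overlap a 5hmC peak of the same glucose level by at least 1 bp, against distance from the outermost listed peak in Mb, over 39 arm ends with exact 95% intervals. Red is high and blue normal glucose, dotted lines give the shares outside the end zones, 29.2% and 36.0%, and the high-glucose points lie below the normal-glucose points in each bin.

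5mC peaks present at both glucose levels were followed further. Of the 17002 such peaks of the high-glucose list in the end zones, 43.5% overlapped 5hmC in both lists, where the autosomes as a whole gave 33.0%. Another 4.82% overlapped 5hmC in high glucose only, against 4.37% over all autosomes, 13.2% in normal glucose only, against 10.7%, and 38.5% in neither, against 52.0%. Stable 5mC with 5hmC at normal glucose only was thus 2243 peaks in the end zones and with 5hmC at high glucose only 819, and the share of the first kind lay between 11.6% and 15.1% in the 10 distance bins. Among 5hmC peaks found at 1 glucose level, 28.4% of those of high glucose (27.1 to 29.8) lay on 5mC of either list, where the autosomal share was 10.6%, against 42.5% of those of normal glucose (41.5 to 43.6), with 17.9% over all autosomes. Among 5hmC peaks found at both levels, 48.5% of the high-glucose and 48.2% of the normal-glucose peaks lay on 5mC, where the autosomal shares were 23.2% and 23.0%. Of 5mC peaks found in high glucose alone, 33.2% lay on 5hmC of either list, where the autosomal share was 25.5%, and of those in normal glucose alone 37.8%, with 28.9% over all autosomes. Of 5mC peaks found at both levels, 61.5% of the high-glucose and 61.1% of the normal-glucose peaks did, with 48.0% and 47.9% over all autosomes. Places where the marks parted in opposite ways were few. In the zones 284 normal-glucose-only 5hmC peaks lay on a high-glucose-only 5mC peak, or 3.46% of 8206, where the share over all autosomes was 2.26%. There were 87 high-glucose-only 5hmC peaks on a normal-glucose-only 5mC peak, or 1.99% of 4374, with 1.05% over all autosomes. Pairs that went the same way numbered 137, or 3.13% of 4374, in high glucose and 277, or 3.38% of 8206, in normal glucose, with 2.09% and 2.39% over all autosomes. Pairs of both kinds were thus more frequent in the end zones, where more 5hmC peaks lie on 5mC.

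Since 5mC is dense in the end zones, windows of 0.5 Mb were grouped by their 5mC cover, a grouping chosen after the data were seen, and end-zone windows were set beside windows elsewhere of the same class. In windows with under 1% 5mC cover, the 5hmC peak ratio, high over normal glucose, was 1.06 (0.994 to 1.12) over 76 end-zone windows and 0.994 (0.982 to 1.01) over 2739 windows elsewhere. At 2 to 5% it was 0.902 (0.856 to 0.952) and 0.876 (0.864 to 0.887), at 10 to 20% 0.836 (0.806 to 0.868) and 0.863 (0.8415 to 0.885), and above 20% 0.856 (0.832 to 0.881) over 80 end-zone windows and 0.870 (0.810 to 0.934) over the 11 windows elsewhere. The classes of 1 to 2%, with 0.973 (0.9075 to 1.04) and 0.914 (0.899 to 0.929), and of 5 to 10%, with 0.870 (0.833 to 0.908) and 0.859 (0.845 to 0.874), completed the 6. In each of the 6 classes the intervals of the end zones and of the rest overlapped. The end zones lay above the rest in each class under 10% and below it in each class above. These differences of opposite sign partly cancel in a weighted mean. The classes of the rest were then weighted as they occur in the end zones, for the 5hmC ratio by normal-glucose 5hmC peaks. Of these 27589 peaks, 10212 lay in the class above 20%, for which the rest has 11 windows. No interval was worked out for weighted values. So weighted, the 5hmC ratio of the rest was 0.879, beside 0.881 in the end zones and 0.914 for the rest as it is. In covered length it was 0.841, beside 0.846 and 0.934, and for the stronger peaks (-log10 p of 10 or more) it was 1.02, beside 1.02 and 1.13. For 5mC peak numbers the weighted rest gave 1.055, as did the end zones. For 5mC peaks as strong as that, the weighted rest gave 1.10, above the 1.06 (1.04 to 1.09) of the end zones. The weighted share of 5mC peaks with 5hmC was 46.6% in high and 56.3% in normal glucose, somewhat above the 43.85% and 53.4% of the end zones. The 5mC cover of the classes comes from the same lists, and base composition was not used here.

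**Figure D5:**
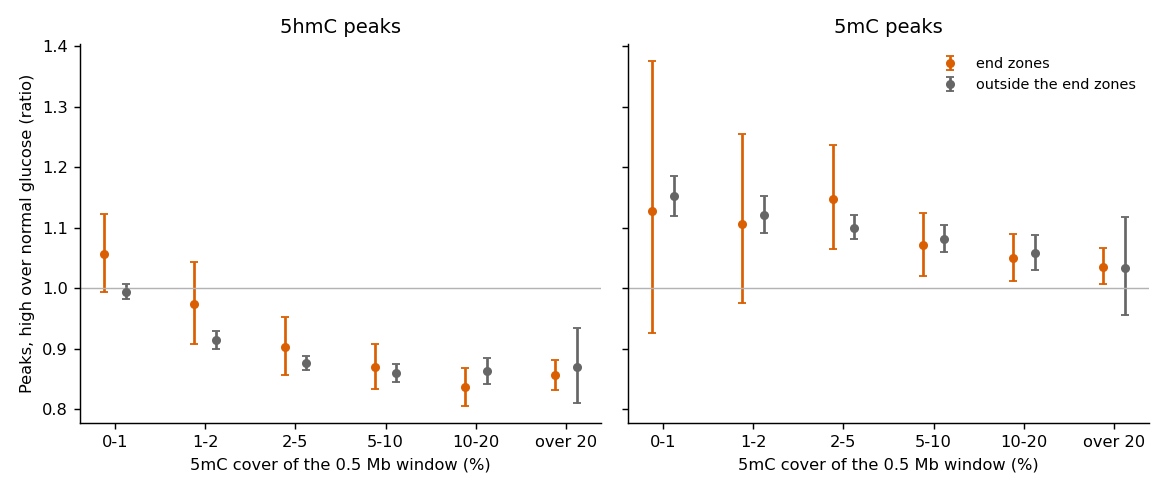
Ratio of peak numbers, high over normal glucose, for 5hmC (left) and 5mC (right) in windows of 0.5 Mb grouped by their mean 5mC cover in percent, with 95% counting intervals. Orange is the end zones and grey the rest of chromosomes 1 to 22, and the 5hmC ratio is lower in each class above 2% than in the class under 1%, where it is 1.06 in the end zones and 0.994 in the rest.

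The strongest peaks of the zones, ranked by -log10 p, show the places behind these counts. Each was ranked within a single list, which favours the glucose level of that list. Their folds at the other level are given for description and are no contrast between the levels. In high glucose the strongest 5hmC peak lay on chromosome 10 from 134429267 to 134430570, 1.095 Mb from the end, with 121 fragments at its summit, 24.7-fold enrichment and a -log10 p of 132. Its normal-glucose counterpart had 18.4-fold enrichment (-log10 p 94.4). Next came a place without a 5mC peak on chromosome 9 from 136968343 to 136969880, enriched 23.96-fold against 15.1-fold in normal glucose. The third lay on chromosome 16 from 88467668 to 88468922, at 17.2-fold against 15.98-fold, with a 5mC peak in normal glucose only. In normal glucose the strongest 5hmC peak lay on chromosome 11 from 1014917 to 1018811, where the enrichment was 12.1-fold in high (-log10 p 90.7) and 28.3-fold in normal glucose (-log10 p 129.9). The next were the counterparts on chromosomes 16 and 10. The widest 5hmC peak at both levels lay at the end of 8q, from 144984242 to 145008311 in high and from 144985531 to 145008243 in normal glucose, or 24070 and 22713 bp.

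The strongest 5mC peaks were 1286 to 12006 bp wide and were listed at both glucose levels. They too were ranked within a single list, and each had the higher fold at the level that ranked it. In high glucose the first lay at 8q from 144402836 to 144409940, enriched 94.97-fold against 72.6-fold in normal glucose, and the others on chromosome 16 from 1782044 to 1794049 and from 1367219 to 1370402, with 85.8 against 72.3 and 90.9 against 66.3. In normal glucose they lay on chromosome 7 from 156733171 to 156736332, where the fold was 77.3 in high and 89.5 in normal glucose, on chromosome 20 from 62900816 to 62902101, 0.0175 Mb from the outermost peak, with 60.8 and 71.1, and on chromosome 7 from 2098773 to 2100772, with 74.5 and 75.9. Each of these 6 peaks overlapped 5hmC at both glucose levels. The widest 5mC peaks were those of chromosome 4 from 1357343 to 1375392 in high glucose, 18050 bp, and of chromosome 16 from 586114 to 602985 in normal glucose, 16872 bp.

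Peaks found at 1 glucose level were far weaker than these. For 5hmC in high glucose alone, the strongest were enriched 9.30-fold at 21q (44057244 to 44057757), 8.52-fold at 7q (157673585 to 157674116) and 8.39-fold at 12p (1751174 to 1752219), and only the 21q peak lay on 5mC, at both levels. For 5hmC in normal glucose alone, they were enriched 9.58-fold at 4p (3232770 to 3233335), 9.35-fold at 7p (2502539 to 2502950) and 8.175-fold at 5p (1335681 to 1336301). The 5p peak lay on 5mC of both levels, the 4p peak on 5mC of normal glucose and the 7p peak on none. For 5mC in high glucose alone, the enrichment was 12.9-fold at 17q (77846570 to 77847066) and 13.2-fold at both 19p (3721949 to 3722380) and 6p (4853690 to 4854252), and the 6p peak carried 5hmC at both levels. For 5mC in normal glucose alone, it was 13-fold at 19p (3925249 to 3925737), 11.8-fold at 7p (858264 to 858790) and 10.7-fold at 12p (787754 to 788271). All 3 of these carried 5hmC in normal glucose, and the 12p peak also in high glucose. From these 12 peaks it was 298 to 8114 bp to the closest peak of the same mark in the opposite list. A peak found at 1 level is not thereby shown to differ.

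All 4 lists met at 8103 of the 24297 high-glucose 5hmC peaks of the zones, or 33.35%, where the share over all autosomes was 13%. Ranked by the weakest of their 4 values of -log10 p, the strongest of these places were the chromosome 10 peak above, chromosome 13 from 114777501 to 114779927, 0.320 Mb from the end, and chromosome 11 from 1015496 to 1018782. At the place on chromosome 10 the fold of 5mC was 45.96 in high and 31.03 in normal glucose. At the place on chromosome 13 the fold of 5hmC was 16.4 in high and 19.8 in normal glucose and that of 5mC 42.4 and 36.3. On chromosome 11, the 5hmC fold was 12.1 in high and 28.3 in normal glucose, and the 5mC fold 33.5 and 33.4. At these 3 places, then, the 5hmC fold was higher in high glucose at 1 and lower at 2. The 5mC fold was higher in high glucose at 2 and nearly equal at 1. The places were picked for strength, and 5mC folds depend on the 1 they add, so this is no result about the zones.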

How the data were processed

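hMeDIP-seq and MeDIP-seq peak lists of A2058 TET2WT cells were used, 1 per library, with groups taken from the sample titles. The inputs, 2 libraries, were not used here. Peak names inside the lists say Ctrl where the titles say high glucose and Low where they say normal glucose, and the titles were followed. Per the submitters' processing notes, positions are on hg19, and the tools were bedtools 2.17.0, SAMtools 0.1.18, Bowtie 1.0.0 and CASAVA 1.8.2, with no roles given. The peak caller is not given in the sources used here. For each peak the authors deposited a fold enrichment (a ratio), a -log10 p-value and a -log10 q-value, and a display score in the deposited lists, which was not used. The highest q-value was 0.0498, 0.0496, 0.0496 and 0.0488 in the lists of 5hmC in high and normal and 5mC in high and normal glucose. No genome or annotation on hg19 was used here, so regions are given by position, 1-based, with no sequence and no gene.

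Peaks were placed by midpoint, and cover is the summed length of the peaks of a zone over its length, gaps in the assembly included. Overlap meant at least 1 bp. Fragments at the summit (t) and expected fragments (L) were solved from 2 relations, a fold of (t + 1)/(L + 1) and a p-value equal to the Poisson chance of exceeding t, within 0.002 of -log10 p. They were found for 100% of autosomal peaks in each list, a search checked on simulated peaks. Depths per library are not stated, and these expected numbers were used in their place. Whether they follow depth alone was not tested. For 5hmC the shortest peak, which was also the commonest width, differed between the glucose levels, so matched background is not matched depth. The alternatives were thresholds of -log10 p of at least 10 and -log10 q of at least 2, zones of 3 and 10 Mb, equal numbers of top peaks, matched background, covered length, merging within 500 bp, overlap of 50% and each chromosome left out in turn. Weighting by 5mC class, windows with a peak and fragments over expected numbers with nothing added were chosen after seeing the data. Named are, per list, the 3 strongest and the widest end-zone peaks and the 3 strongest found at 1 glucose level, and, per mark, the 3 extreme arm ends and bins and the 3 strongest places of all lists. Zones, lists and comparisons were chosen with earlier results of these data known. Python 3.11.15, NumPy 2.4.6, pandas 2.3.3, SciPy 1.17.1 and matplotlib 3.10.9 were used.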

Additional observations from a re-analysis of the deposited data

Results flagged for a closer look

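The ends of the X chromosome, which no comparison above uses, also held peaks of both marks. Within 5 Mb of the outermost listed peaks of the X chromosome there were 587 5hmC peaks in high and 614 in normal glucose, and 300 5mC peaks in high and 270 in normal glucose. They covered 3.87% and 3.92% of these ends for 5hmC and 2.49% and 2.165% for 5mC, less than the autosomal end zones in each list. They are given because they are a signal in data that the report does not otherwise use.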

How the results depend on the processing

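No paired analysis was possible because each mark and glucose level has 1 library. Leaving out each chromosome in turn turned no direction. The 5hmC peak ratio of the end zones, high over normal glucose, then lay between 0.877 and 0.885 and that ratio divided by the ratio of the rest between 0.960 and 0.967, with 35 to 36 arm ends lower in high glucose. The 5mC ratio lay between 1.052 and 1.057, divided by that of the rest between 0.955 and 0.966, with 32 to 34 arm ends higher. The cover of the end zones over that of the rest was 2.365 to 2.55 for 5hmC in high and 2.59 to 2.82 in normal glucose, and 5.42 to 5.89 and 5.596 to 6.10 for 5mC. The outermost over the last bin gave 1.02 to 1.12 and 1.04 to 1.14 for 5hmC and 1.59 to 1.81 and 1.58 to 1.84 for 5mC. Peaks at 1 glucose level made up 17.8% to 18.4% and 29.5% to 30.1% for 5hmC and 18.15% to 18.8% and 13.3% to 13.8% for 5mC. The share of 5mC peaks with 5hmC was 42.9% to 44.5% in high and 52.4% to 54.0% in normal glucose, with a difference of -9.675 to -9.35 points.

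In what follows values are given for 5hmC in high and normal and then 5mC in high and normal glucose. Keeping peaks with a -log10 p of 10 or more, the 5hmC ratio turned to 1.02, 0.901 of that of the rest, with 10 arm ends lower in high glucose. The cover over that of the rest was then 2.55, 3.05, 7.41 and 7.655, the outermost over the last bin 1.15, 1.20, 1.97 and 1.965, and the share at 1 level 27.4%, 27.0%, 16.7% and 11.3%. The share of 5mC with 5hmC was 29.4% in high and 34.9% in normal glucose, a difference of -5.5 points. With matched background as well, the 5hmC ratio was 0.929 of that of the rest, and the 5mC ratio turned to 0.970, 1.025 of that of the rest, with 9 arm ends higher in high glucose. The cover over that of the rest was 2.62, 3.05, 7.84 and 7.655, the bin ratio 1.15, 1.20, 2.04 and 1.965, the share at 1 level 22.6%, 32.4%, 12.4% and 14.7%, and the share of 5mC with 5hmC 26.6% and 34.9%, or -8.25 points.

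Equal numbers of top peaks set the ratio over all autosomes to 1 by construction, so the ratios under this setting (0.971 for 5hmC, 0.987 for 5mC with 13 arm ends higher) are no result about the ends. The 5mC ratio divided by that of the rest was 0.984. The 5mC cover in high glucose was 5.92 times that of the rest, the share at 1 level 21.6%, 26.4%, 15.5% and 15.75%, and the share of 5mC with 5hmC 45.1% and 49.6%, or -4.58 points. Covered length gave a 5hmC ratio of 0.846, 0.906 of that of the rest, and merging within 500 bp 0.905. An overlap of 50% of both peaks gave shares at 1 level of 37.55%, 45.0%, 32.1% and 28.3% and of 5mC with 5hmC of 17.5% and 22.1%, or -4.55 points. With -log10 q of at least 2 the high-glucose 5hmC share at 1 level was 18.7%, and 5mC with 5hmC 43.15% and 52.3%.

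Zones of 3 Mb gave a cover of 2.56, 2.86, 6.27 and 6.47 times that of the rest, shares at 1 level of 16.95% (5hmC, high), 17.3% (5mC, high) and 12% (5mC, normal), and 5mC with 5hmC of 45.2% and 55.1%. Zones of 10 Mb gave 2.15, 2.34, 4.42 and 4.56 times, 19.55%, 20.9% and 15.7%, and 41.5% and 50.4%. In alternatives added after seeing the data, 0.5 Mb windows with a peak gave 2.36, 2.60, 5.525 and 5.71 times, and weighting by 5mC class moved the ratio over that of the rest to 1.002 for 5hmC, with the direction turned, and 0.9997 for 5mC. For the other results that moved or turned, the cause was not tested. Depths are not known, and the background of the high-glucose library was 1.15 times that of normal glucose for 5hmC and 1.20 times for 5mC.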

Other observations

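The left-out first-row ends of chromosomes 13, 14, 15, 21 and 22 held 918 5hmC peaks in high and 1073 in normal glucose over their first 5 Mb, and 853 and 743 5mC peaks. Their cover was 2.58% in high and 2.84% in normal glucose for 5hmC and 2.39% and 2.10% for 5mC, below the end zones for each list and, for 5mC, above the rest of the autosomes. The list that holds the outermost peak of an arm end sets the zero point there, and its own distance is short by construction. The 5hmC lists also hold more autosomal peaks (186202 and 204715) than the 5mC lists (98433 and 90414). The distances are therefore no comparison of the marks. The median distance from the outermost listed peak of any list to the first peak of a given list was 0.341 kb in high and 0.332 kb in normal glucose for 5hmC and 4.88 kb and 5.64 kb for 5mC, over 39 arm ends. At 1p the first 5mC peak lay 523 kb in high and 715 kb in normal glucose from the outermost listed peak.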
